A study of Mus musculus with 8 samples.

Results

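The δ-cells of mouse islets were followed through 18 h of exposure to cytokines, with or without NMMA, an inhibitor of nitric oxide synthase. A barcode of the single-cell RNA sequencing libraries was taken as a δ-cell when *Sst*, the somatostatin gene, held at least 50% of the UMIs of 6 islet hormone genes (*Ins1*, *Ins2*, *Gcg*, *Sst*, *Ppy* and *Pyy*). A UMI, or unique molecular identifier, stands for 1 captured mRNA molecule. The 6 genes had to make up at least 1% of the barcode's UMIs, and the barcode had to hold at least 3000 UMIs, at most 10% of them mitochondrial, and between 200 and 5500 genes (replicate 1) or 6500 genes (replicate 2). The rule found 95 δ-cells among 17426 deposited barcodes, of which 10876 met the limits on genes and mitochondrial UMIs and 7639 also met those on depth and hormone UMIs (endocrine cells). By this rule δ-cells were 1.24% of the endocrine cells, beside 6621 β-cells and 567 α-cells chosen by the same cutoff on insulin and glucagon. The share depends on the cutoff, and the study, which grouped cells by clustering, counted more δ-cells.

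δ-cells secrete somatostatin, a paracrine brake on the release of insulin and glucagon by their neighbours, and depend on the homeobox factor Hhex for their identity. IL-1β acts mainly through NF-κB, and IFN-γ through JAK kinases and STAT factors, which induce the transcription factor IRF1 and with it genes of cell-autonomous immunity and antigen presentation. In β-cells the combination of both cytokines induces *Nos2*, the gene of inducible nitric oxide synthase (iNOS), whose product nitric oxide inhibits mitochondrial metabolism.

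Islets of 10 male C57BL/6 mice, 12 to 16 weeks old, were pooled for each of 2 replicates, and each pool was divided over 4 conditions. Intact islets were left untreated, were given IL-1β at 10 U/mL together with IFN-γ at 150 U/mL (cytokines), the same cytokines plus 2 mM NMMA, or 2 mM NMMA alone, and were dispersed after 18 h for 10x Genomics libraries of pooled cells. The 8 libraries therefore compare dishes of islets from 2 pools, and p-values measure the spread between these dishes rather than between animals. The islets were treated whole, so that each δ-cell was exposed beside β-cells, α-cells and macrophages.

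In replicate 1 there were 30 δ-cells in the untreated library, 4 with cytokines, 16 with cytokines plus NMMA and 14 with NMMA alone. Replicate 2 gave 8, 3, 12 and 8 δ-cells in the same order. The comparisons with cytokines alone thus rest on 7 cells. As a share of endocrine cells, δ-cells made up 1.53% and 0.991% of the untreated libraries (replicates 1 and 2, the order used throughout), 0.336% and 0.485% with cytokines, 2.03% and 2.09% with cytokines plus NMMA, and 1.74% and 0.895% with NMMA alone. Both libraries with cytokines alone lay below the 6 others. These shares are a description and carry no test, because *Sst* chose the cells. Fewer δ-cells and less *Sst* RNA per δ-cell cannot be told apart from them. With a wider gate (*Sst* at least 30% and insulin at most 10% of the hormone UMIs, 183 cells), cytokines alone were again lowest, at 0.589% and 1.29% against 1.79% to 4.06% in the other libraries.

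**Figure D1:**
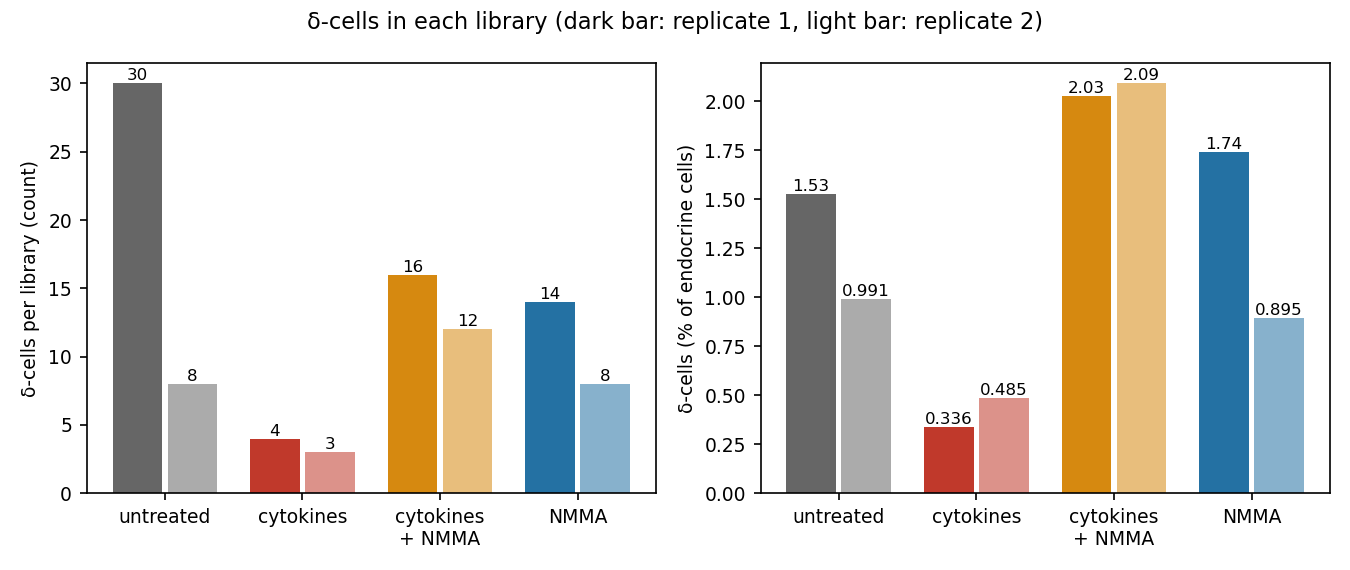
Bars give the number of δ-cells (left) and their percentage among endocrine cells (right) in each library, dark for replicate 1 and light for replicate 2. The libraries with cytokines alone held 4 and 3 δ-cells, fewer than any other library.

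*Sst* itself (chromosome 16, 23889573 to 23890958, minus strand, GRCm38) took 12.7% and 10.6% of the UMIs of untreated δ-cells, 5.52% and 11.2% with cytokines, 5.28% and 5.73% with cytokines plus NMMA, and 14.2% and 12.2% with NMMA alone. The 2 libraries of cytokines plus NMMA and replicate 1 of cytokines alone were low, while replicate 2 of cytokines alone lay within the range of the libraries without cytokines. Taken over all barcodes of a library, *Sst* was 0.292% and 0.357% of UMIs in untreated islets, 0.0286% and 0.0915% with cytokines, 0.207% and 0.218% with cytokines plus NMMA, and 0.337% and 0.410% with NMMA alone, so that both libraries of cytokines alone were lowest.

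The cells carried δ-cell markers that the rule did not use. *Hhex* stood at 328 and 611 CPM (counts scaled to a common library size of 1e6) in untreated δ-cells against 2.79 and 3.51 in β-cells and 3.91 and 4.01 in α-cells. The CPM are UMIs of a class summed over each library, relative to the UMIs of the genes tested, after TMM scaling. *Rbp4*, a retinol carrier and a known δ-cell marker, was at 5681 and 5599 CPM in δ-cells, 88.3 and 89.3 in β-cells, and 2325 and 1759 in α-cells. Of 8 δ-cell markers only *Lepr* had no UMI in any δ-cell. The cells were not free of other hormones: in the median δ-cell *Sst* held 60.5% of the hormone UMIs, *Ppy* with *Pyy* 35.2%, insulin 2.24% and *Gcg* 0.114%. The cells crowded near the cutoff, with 45 members between 50% and 60% and 52 endocrine cells just outside, between 40% and 50%. The lowest member stood at 50.1% and the highest cell left out at 49.9%. Only 3 cells passed at 80%.

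The libraries held 26549922 to 50731370 UMIs in all, and the δ-cell sums 31527 to 328487, so that 1 UMI was worth 19.3 CPM in replicate 1 and 36.1 CPM in replicate 2 of cytokines alone. δ-cells had a median of 13258 UMIs (range 3069 to 32722). Macrophage markers summed to 1.31 and 2.16 per 10000 UMIs in untreated δ-cells, 0.553 and 3.81 with cytokines, 15.0 and 5.66 with cytokines plus NMMA, and 0.793 and 1.01 with NMMA alone. Of these markers 7 of 10 had UMIs, and *C1qb*, *Tyrobp* and *Adgre1* were at 0. *C1qa* had 94 UMIs in all, 42 of them in untreated cells. *Cd74*, the class II invariant chain, gave 454 of the 585 UMIs of these markers, at 25.5 and 0 CPM in untreated cells, 0 and 325 with cytokines, 1542 and 544 with cytokines plus NMMA and 0 in both libraries with NMMA alone. The part of these UMIs in the results was not tested. Endothelial markers reached at most 0.737 per 10000 UMIs, with *Plvap*, *Kdr* and *Esm1* at 0, and mesenchymal markers gave 4 UMIs in all. β-cell markers other than insulin ran from 109 to 391 per 10000 UMIs with *Ucn3* at 0, and α-cell markers from 2.58 to 18.6 per 10000 UMIs. Most of the 41435 β-cell marker UMIs were of *Iapp*, which had 13615 in untreated cells and 10097 with NMMA alone. A β-cell profile scaled to the insulin UMIs would give 0.504% to 1.42% of the δ-cell UMIs of a library. The α-cell markers included *Cltrn*, whose change is given below. Of the barcodes kept, 14 occurred in more than 1 library. No δ-cell barcode recurred among δ-cells, and 1 was kept in another library.

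Cytokines changed the transcriptome of δ-cells in both directions, while NMMA alone gave no call. Of 3293 genes tested with edgeR on the library sums (adjusted p under 0.05, 2 libraries a condition, all 8 in the fit), 131 were higher and 69 lower with cytokines than in untreated cells, 6.07% of those tested. With cytokines plus NMMA 160 were higher and 35 lower than in untreated cells (5.92%), or 229 and 64 when the replicate was a term of the fit. The comparisons share the untreated libraries. Among these calls 9 genes of the first comparison were mitochondrial and 3 of the second were hormone genes, which the rule used. Between NMMA alone and untreated cells edgeR called 0 genes, DESeq2 called 0, and 74 genes had an unadjusted edgeR p under 0.05. Over the 4 libraries with cytokines against the 4 without, 232 genes were higher (7.05%) and 157 lower (4.77%), 11.8% in all. Scaling by total UMIs instead of TMM moved this to 276 and 108 and the median of all genes from -0.03 to 0.13 on the log2 scale. The median over all genes was -0.07 with cytokines alone and 0.10 after total-UMI scaling, and higher calls were 144 against 47 lower ones there, or 78 against 17 with DESeq2. The calls leaned on single libraries: without cytokines replicate 1 the calls for cytokines alone went to 59, and without untreated replicate 1 to 81. For cytokines plus NMMA they went to 78 without untreated replicate 1, and to 316, 324 and 299 without cytokines replicate 1, cytokines replicate 2 and NMMA replicate 2. With cytokines present against absent they went to 188 without cytokines replicate 1 and 255 without NMMA replicate 1.

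Genes that carry the cytokine signal rose in δ-cells, among them *Irf1*, *Socs1* and *Irf7*. Of 9 tested genes of the STAT, SOCS and IRF list, 4 were higher with cytokines (3.98% of all genes were higher) and 5 with cytokines plus NMMA (4.86% of all genes), none was lower, and the median log2 changes were 2.96 and 2.88 beside -0.07 and 0.00 over all genes. *Irf1*, a transcription factor induced by IFN-γ, stood at 40.1 and 28.4 CPM in untreated δ-cells, 926 and 758 with cytokines, 608 and 720 with cytokines plus NMMA, and 49.0 and 46.6 with NMMA alone. All 4 libraries with cytokines lay far above the 4 without. The log2 change was 4.49 ± 0.44 (SE) with cytokines (edgeR adjusted p = 1e-07) and 4.14 ± 0.42 with cytokines plus NMMA (edgeR adjusted p = 2.6e-08).

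*Socs1*, the feedback inhibitor of JAK kinases, had 1 UMI in all libraries without cytokines and stood at 96.5 and 289 CPM with cytokines and 250 and 274 with cytokines plus NMMA. The libraries with and without cytokines did not overlap. The log2 change was 5.48 ± 0.94 with cytokines (edgeR adjusted p = 0.00023) and 6.11 ± 0.71 with cytokines plus NMMA (4.5e-07). *Irf7* rose by 3.49 ± 0.61 and 3.34 ± 0.52 on the log2 scale, with an edgeR adjusted p of 0.087 and 0.10 when untreated replicate 1 was left out. *Socs3*, which restrains STAT3 signalling, passed only with cytokines plus NMMA, at 311 and 118 CPM against 32.8 and 14.2 in untreated cells (log2 change 2.88 ± 0.55, edgeR adjusted p = 0.00095; 0.33 without cytokines plus NMMA replicate 1). *Il1r1*, the IL-1 receptor, was at 80.2 and 128 CPM in untreated δ-cells and 19.3 and 36.1 with cytokines, a difference that did not pass (edgeR adjusted p = 0.26). *Irak1* and *Jak1* did not pass either, and the other 10 receptor and adaptor genes were too low to test.

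NF-κB feedback genes rose as well. Of 6 tested members of the NF-κB list, 3 were higher with cytokines (3.98% of all genes) and 5 with cytokines plus NMMA (4.86%). The median log2 changes were 2.51 and 2.31. *Nfkbia*, which encodes the NF-κB inhibitor IκBα and is itself an NF-κB target, was at 62.0 and 71.1 CPM in untreated cells, 695 and 469 with cytokines, 335 and 348 with cytokines plus NMMA, and 91.9 and 81.5 with NMMA alone. The groups with and without cytokines did not overlap, and the log2 changes were 3.19 ± 0.44 (edgeR adjusted p = 9.2e-06) and 2.38 ± 0.41 (0.00015; 0.053 without untreated replicate 1). *Birc3*, an inhibitor of apoptosis, rose by 4.47 ± 1.06 and 3.76 ± 0.95, and *Nfkb1*, the p105 subunit, by 2.46 ± 0.66 and 2.24 ± 0.52. The list was fragile: without untreated replicate 1 its calls were 1 and 0, without cytokines replicate 1 it had 1 with cytokines alone, and without cytokines plus NMMA replicate 2 it had 1 with cytokines plus NMMA.

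The guanylate binding proteins (GBPs) and immunity-related GTPases (IRGs), large GTPases induced by IFN-γ that attack the vacuoles of intracellular pathogens, rose by large amounts. Of 9 GBP genes tested, 7 were higher with cytokines and 7 with cytokines plus NMMA, and of 7 IRG genes tested all 7 were higher in both. Over all genes 3.98% and 4.86% were higher. *Gbp2*, *Gbp5*, *Gbp10*, *Irgm2*, *Iigp1*, *Tgtp1* and *Gm4951* had no UMI without cytokines. They passed the filter on low counts only through the libraries with cytokines, so the counts of these 2 lists were partly set by that filter. *Socs1*, *Birc3*, *Zbp1*, *Isg15*, *Tap1*, *Cxcl9* and *C1ra* entered in the same way. They had 0, 4, 1, 0, 2, 0 and 1 UMIs with NMMA alone and 1, 2, 0, 2, 0, 0 and 2 untreated. The filter thus also partly set the counts of the STAT, SOCS and IRF, NF-κB, antiviral, MHC class I, chemokine and secreted defence lists. The median log2 changes of the GBPs were 6.65 and 7.25, and 5.89 and 5.45 with genes absent from untreated cells set to their lower bound. Those of the IRGs were 6.10 and 7.11, and 4.53 and 4.52. *Gbp2* had no UMI in any δ-cell without cytokines, and stood at 1351 and 361 CPM with cytokines and 1056 and 1441 with cytokines plus NMMA. It was found in 4 of 4 and 2 of 3 cells with cytokines, in 16 of 16 and 12 of 12 with cytokines plus NMMA, and in none of the 60 other δ-cells. Against a floor of 3 UMIs over both untreated libraries it was at least 116-fold higher with cytokines (edgeR adjusted p = 0.0016, or 0.088 with the replicate as a term) and at least 143-fold higher with cytokines plus NMMA (0.00078, or 0.061).

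*Irgm2* likewise had no UMI without cytokines and stood at 174 and 253 CPM with cytokines and 165 and 235 with cytokines plus NMMA, at least 23.1-fold and 22.9-fold higher than untreated. *Iigp1* went from 0 to 367 and 325 CPM with cytokines, at least 40.4-fold, and to 872 and 1853 with cytokines plus NMMA, at least 155-fold. Both were absent from all 4 libraries without cytokines. *Igtp* was detected at 14.6 and 14.2 CPM in untreated cells and rose to 579 and 433 with cytokines (log2 change 5.07 ± 0.53, edgeR adjusted p = 2.1e-07) and to 580 and 613 with cytokines plus NMMA (5.28 ± 0.50, 1.2e-08), and *Irgm1* rose by 3.56 ± 0.47 and 3.98 ± 0.44. *Gbp4* (edgeR adjusted p = 0.12 and 0.085) and *Gbp6* (0.34 and 0.19) did not pass. With the replicate as a term *Gbp6* did (2e-06 and 6.4e-12). Without cytokines replicate 1 the calls with cytokines alone were 2 of 9 GBPs and 4 of 9 IRGs, and without untreated replicate 1 the GBPs called were 4 in each comparison. Members of the GBP, IRG and MHC class I families share stretches of sequence, and reads that match several of them can be lost or misplaced in counting, so the values of single members are uncertain.

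The promoters of 5 genes that carry this response are shown because they hold the letters of motifs through which the cytokine-activated factors are known to act. Each line gives the 250 bases before the transcription start on the gene's strand, from RefSeq on GRCm38.p6, in lower case with the motifs in capitals. The motifs searched on both strands were the motif GAS of STAT factors (TTCNNNGAA), the IRF motif ISRE (GAAA, any 2 bases, GAAA) and the κB motif (GGGA, any 4 bases, CC).
*Gbp2*, chr3:142620413-142620662, plus strand, with 1 ISRE:
Gbp2: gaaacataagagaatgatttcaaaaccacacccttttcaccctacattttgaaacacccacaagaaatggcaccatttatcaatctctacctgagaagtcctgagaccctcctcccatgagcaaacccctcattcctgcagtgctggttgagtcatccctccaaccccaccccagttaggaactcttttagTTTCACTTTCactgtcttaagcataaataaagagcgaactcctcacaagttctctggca
*Irgm2*, chr11:58214727-58214976, plus strand, with a GAS followed by an ISRE:
Irgm2: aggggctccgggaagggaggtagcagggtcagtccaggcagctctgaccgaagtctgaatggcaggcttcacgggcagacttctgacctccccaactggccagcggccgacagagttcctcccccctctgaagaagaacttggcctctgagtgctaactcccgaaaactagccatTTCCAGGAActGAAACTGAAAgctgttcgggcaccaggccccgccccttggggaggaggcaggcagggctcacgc
*Irf1*, chr11:53769764-53770013, plus strand, with a GAS and, near the start, a κB motif:
Irf1: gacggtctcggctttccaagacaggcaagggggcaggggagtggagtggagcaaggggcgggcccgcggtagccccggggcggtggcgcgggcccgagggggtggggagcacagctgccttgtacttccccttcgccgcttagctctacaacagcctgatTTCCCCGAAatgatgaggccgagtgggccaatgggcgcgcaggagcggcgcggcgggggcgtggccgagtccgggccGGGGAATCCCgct
*B2m*, chr2:122147437-122147686, plus strand, with an ISRE followed by 2 overlapping κB motifs:
B2m: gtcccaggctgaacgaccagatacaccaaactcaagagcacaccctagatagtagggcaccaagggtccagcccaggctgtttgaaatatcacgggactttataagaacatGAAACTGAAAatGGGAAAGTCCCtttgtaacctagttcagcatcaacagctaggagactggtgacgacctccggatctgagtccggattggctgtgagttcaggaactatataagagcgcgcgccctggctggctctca
*Nfkbia*, chr12:55492648-55492897, minus strand, with 2 κB motifs:
Nfkbia: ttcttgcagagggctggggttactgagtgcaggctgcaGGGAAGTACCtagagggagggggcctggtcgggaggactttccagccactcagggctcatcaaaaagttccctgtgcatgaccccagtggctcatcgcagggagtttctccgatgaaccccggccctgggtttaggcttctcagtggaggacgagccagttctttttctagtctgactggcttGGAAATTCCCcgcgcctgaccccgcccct

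Among 27025 genes with such a window, 8.13% held a GAS, 3.46% an ISRE and 19.7% a κB motif. Among the genes tested in δ-cells, mitochondrial and hormone genes left out, 2634 had a window. Of these 6.57%, 3.87% and 25.2% held the 3 motifs. Of the 232 genes higher with cytokines present, 182 had a window, and 15.9%, 12.1% and 30.2% of these held the 3 motifs; of 144 lower genes (mitochondrial and hormone genes left out) 115 had a window, with 6.96%, 3.48% and 22.6%. By list, 5 of 5 GBPs and 5 of 6 IRGs with a window held an ISRE, as did 7 of 14 antiviral genes and 3 of 17 MHC class I genes. A κB motif was found for 7 of 10 NF-κB list members. A match is a description of these letters and names no binding site.

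Antiviral genes stimulated by interferon rose in the same libraries. Of 16 tested, 10 were higher with cytokines (3.98% of all genes) and 10 with cytokines plus NMMA (4.86%). The filter on low counts partly set these numbers. The median log2 changes were 3.32 and 3.05. *Isg15*, a ubiquitin-like modifier, was at 3.65 and 14.2 CPM in untreated δ-cells, 965 and 180 with cytokines, 646 and 681 with cytokines plus NMMA, and 0 in both libraries with NMMA alone. *Zbp1*, a sensor of Z-form nucleic acid, had no UMI in untreated cells and reached 232 and 217 CPM with cytokines and 505 and 887 with cytokines plus NMMA, at least 26.0-fold and 79.5-fold higher. Neither overlapped between libraries with and without cytokines. *Bst2* (tetherin) rose by 3.64 ± 0.76 and 4.49 ± 0.71, *Parp14* by 4.13 ± 0.62 and 4.30 ± 0.54, and *Isg20*, an exonuclease, by 2.69 ± 0.44 and 2.83 ± 0.42 on the log2 scale. *Ifit1* and *Ifit3* did not pass (edgeR adjusted p = 0.28 to 0.53), and untreated replicate 2 held more of both than replicate 1 (99.5 against 7.29 CPM for *Ifit1*). The call of *Bst2* with cytokines alone was lost without cytokines replicate 1 (edgeR adjusted p = 0.43) or untreated replicate 1 (0.052). Without untreated replicate 1 the list had 3 and 4 calls and *Isg15* an edgeR adjusted p of 0.085 and 0.078. Without cytokines replicate 1 it had 3 with cytokines alone, and without cytokines plus NMMA replicate 2 it had 6 with cytokines plus NMMA.

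**Figure D2:**
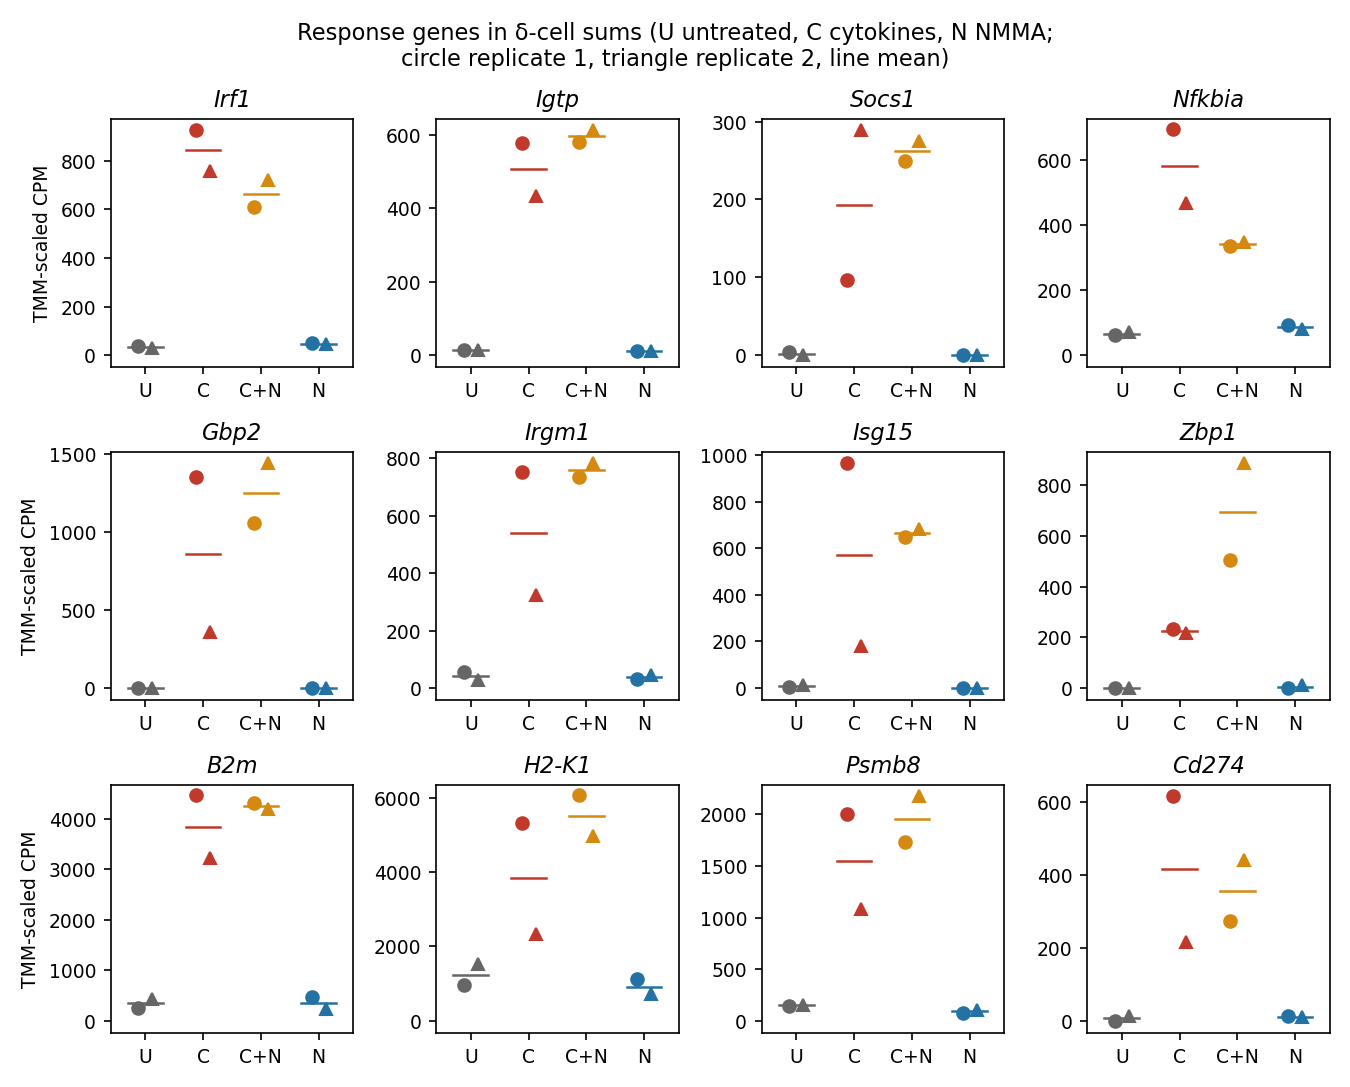
TMM-scaled CPM of 12 response genes in the δ-cell sums of untreated islets (U), cytokines (C), cytokines plus NMMA (C+N) and NMMA alone (N), with circles for replicate 1, triangles for replicate 2 and a line at the mean. In each panel the libraries with cytokines lie above those without; *Irf1*, for example, lay between 608 and 926 CPM with cytokines and between 28.4 and 49.0 without.

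The machinery of antigen presentation on MHC class I rose together. Of 18 tested genes of heavy chains, *B2m*, peptide transporters and immunoproteasome, 14 were higher with cytokines (3.98% of all genes) and 15 with cytokines plus NMMA (4.86%). None was lower, and the median log2 changes were 2.49 and 3.32. *B2m*, the light chain shared by all class I molecules, was at 263 and 426 CPM in untreated cells, 4458 and 3212 with cytokines, 4301 and 4181 with cytokines plus NMMA, and 466 and 233 with NMMA alone. The lowest library with cytokines was well above the highest without, and the log2 changes were 3.53 ± 0.36 (edgeR adjusted p = 2.1e-07) and 3.67 ± 0.36 (2.6e-08). *Psmb8*, a catalytic subunit of the immunoproteasome, went from 142 and 156 CPM to 2007 and 1083 with cytokines and 1735 and 2181 with cytokines plus NMMA, against 79.7 and 105 with NMMA alone (log2 changes 3.40 ± 0.38 and 3.72 ± 0.38).

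*Tap1*, a subunit of the peptide transporter, had no UMI in untreated cells and stood at 270 and 325 CPM with cytokines and 453 and 510 with cytokines plus NMMA, at least 33.2-fold and 55.2-fold higher. The heavy chain *H2-K1* was at 966 and 1521 CPM in untreated cells, 5326 and 2346 with cytokines, 6079 and 4960 with cytokines plus NMMA, and 1116 and 710 with NMMA alone; the groups did not overlap and the log2 changes were 1.65 ± 0.37 and 2.16 ± 0.37. Without cytokines replicate 1 the change of *H2-K1* with cytokines alone was 0.87 (edgeR adjusted p = 0.38) and the list had 9 calls, and without untreated replicate 1 its adjusted p was 0.125. *H2-T23* rose by 2.76 ± 0.38 and 3.8 ± 0.38 and *Psmb9* by 4.10 ± 0.50 and 4.43 ± 0.47. The chaperones *Calr* and *Pdia3*, which help load class I molecules, did not pass in either comparison.

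Genes for signals to immune cells were less even between replicates. *Cd274*, which encodes the checkpoint ligand PD-L1, was at 0 and 14.2 CPM in untreated cells, 617 and 217 with cytokines, 274 and 441 with cytokines plus NMMA, and 12.3 and 11.6 with NMMA alone. It rose in both comparisons, by 6.85 ± 0.81 (edgeR adjusted p = 3.9e-06) and 6.51 ± 0.77 (1.6e-06) on the log2 scale. *Icam1*, an adhesion molecule for leukocytes, stood at 482 and 0 CPM with cytokines and 514 and 407 with cytokines plus NMMA against 3.65 and 0 untreated. The library with 3 cells held none. *Icam1* did not pass against untreated cells (edgeR adjusted p = 0.14 and 0.070), while with the replicate as a term it did (0.002 and 6.9e-05).

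Of 4 chemokine genes tested none was called with cytokines alone and 1, *Cxcl9*, was higher with cytokines plus NMMA (4.86% of all genes). *Cxcl9*, a T cell attractant, was absent without cytokines, at 0 and 36.1 CPM with cytokines and at 316 and 221 with cytokines plus NMMA, at least 30.9-fold above untreated (edgeR adjusted p = 2.8e-07). Its UMIs came from few cells: 64 of 67 UMIs in replicate 1 and 42 of 45 in replicate 2 of cytokines plus NMMA lay in a single cell each. *Cxcl10* was at 309 and 0 CPM with cytokines and 943 and 1475 with cytokines plus NMMA and did not pass (edgeR adjusted p = 0.25 and 0.097), and 269 of its 301 UMIs in cytokines plus NMMA replicate 2 were in 1 cell. *Ccl5* was likewise held by single cells, 33 of 33 UMIs with cytokines and 100 of 108 with cytokines plus NMMA in replicate 1.

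Secreted defence genes rose in 3 of 7 cases with cytokines (3.98% of all genes) and 5 of 7 with cytokines plus NMMA (4.86%). *Serping1*, the C1 inhibitor, was at 186 and 28.4 CPM untreated, 1119 and 505 with cytokines, 1613 and 1211 with cytokines plus NMMA, and 190 and 244 with NMMA alone (log2 changes 2.70 ± 0.56 and 3.45 ± 0.54). *C1ra*, a complement protease, rose by 5.42 ± 0.94 and 5.28 ± 0.82, and the defensin *Defb1* by 4.06 ± 0.96 and 3.12 ± 0.87. Without cytokines replicate 1 none of the 3 passed with cytokines alone (edgeR adjusted p = 0.26, 0.63 and 0.14), and without untreated replicate 1 the list had 2 calls in each comparison. *Lcn2*, which encodes the siderophore-binding lipocalin-2, showed another pattern. It stood at 2226 and 9988 CPM with cytokines plus NMMA and had no UMI with cytokines alone or NMMA alone and 1 UMI in untreated cells. It was found in 12 of 16 and 8 of 12 cells with cytokines plus NMMA and in 0 of 7 with cytokines alone. The difference from untreated cells had an edgeR adjusted p of 0.21, or 1.3e-25 with the replicate as a term of the fit. Adjusted p-values also moved widely between these 2 fits for *Gbp6*, *Icam1*, *Cfb* and, the other way, *Gbp2*. Like *Lcn2*, these genes were at or near 0 without cytokines. For such genes neither p-value is a firm measure of the spread between replicates. The 2 libraries of cytokines plus NMMA differed from each other, and 1015 of 2038 UMIs in replicate 2 were in 1 cell. *Cfb*, complement factor B, behaved alike, at 38.6 and 36.1 CPM with cytokines and 132 and 985 with cytokines plus NMMA (edgeR adjusted p = 0.20 against untreated, 1.5e-10 with the replicate as a term).

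*Nos2* (chromosome 11, 78920787 to 78960254, plus strand, GRCm38) had UMIs in δ-cells of 3 of the 4 libraries with cytokines and of none without. It stood at 328 and 0 CPM with cytokines, 236 and 431 with cytokines plus NMMA, and 0 in all 4 libraries without. All 4 cells of cytokines replicate 1 had *Nos2* UMIs, none of the 3 cells of replicate 2 did, and with cytokines plus NMMA 10 of 16 (62.5%) and 9 of 12 (75.0%) did. After thinning each cell to 3000 UMIs the shares were 75.0% (exact 95% interval 19.4 to 99.4) and 0 of 3 cells (up to 70.8%) with cytokines, and 31.2% (11.0 to 58.7) and 25.0% (5.49 to 57.2) with cytokines plus NMMA. The intervals, which cover counting error only, overlap widely. In the libraries without cytokines no *Nos2* UMI was found in 30, 8, 14 and 8 cells, which allows shares of cells with a UMI of up to 11.6%, 36.9%, 23.2% and 36.9%, and sets no limit on the cells that express the gene. Barcodes with UMIs of at least 3 endothelial markers, chosen without regard to hormone UMIs and taken as a gauge of free RNA, held *Nos2* after the same thinning in 6.67% and 4.17% of 15 and 24 cells with cytokines and in 18.8% and 31.2% of 16 and 32 cells with cytokines plus NMMA, at median depths of 15449, 16081, 16590.5 and 15430.5 UMIs, against 11001.5, 8168, 15075 and 16635 in δ-cells. The δ-cell share lay below the endothelial one in replicate 2 of cytokines plus NMMA, so that *Nos2* UMIs there cannot be told from this background. The 3 δ-cells in replicate 2 of cytokines alone held no *Nos2* UMI, too few cells to compare. In replicate 1 the δ-cell share was higher, with intervals that overlap (endothelial 0.169 to 31.9 and 4.05 to 45.6). Whether endothelial cells lack *Nos2* under cytokines was not tested.

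For comparison, 26.4% and 25.1% of β-cells held *Nos2* after the same thinning with cytokines and 48.4% and 40.4% with cytokines plus NMMA, while α-cells gave 13.2% and 10.5%, and 21.8% and 22%. The sums of *Nos2* in δ-cells were at least 24.6-fold and 38.1-fold above untreated cells, though neither passed over the spread of replicates (edgeR adjusted p = 0.21 and 0.12). *Gch1*, the first enzyme in the synthesis of the iNOS cofactor tetrahydrobiopterin, was present in all conditions, at 541 to 965 CPM, and did not pass in any comparison named here. The other 7 genes of arginine and nitric oxide metabolism were too low to test.

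**Figure D3:**
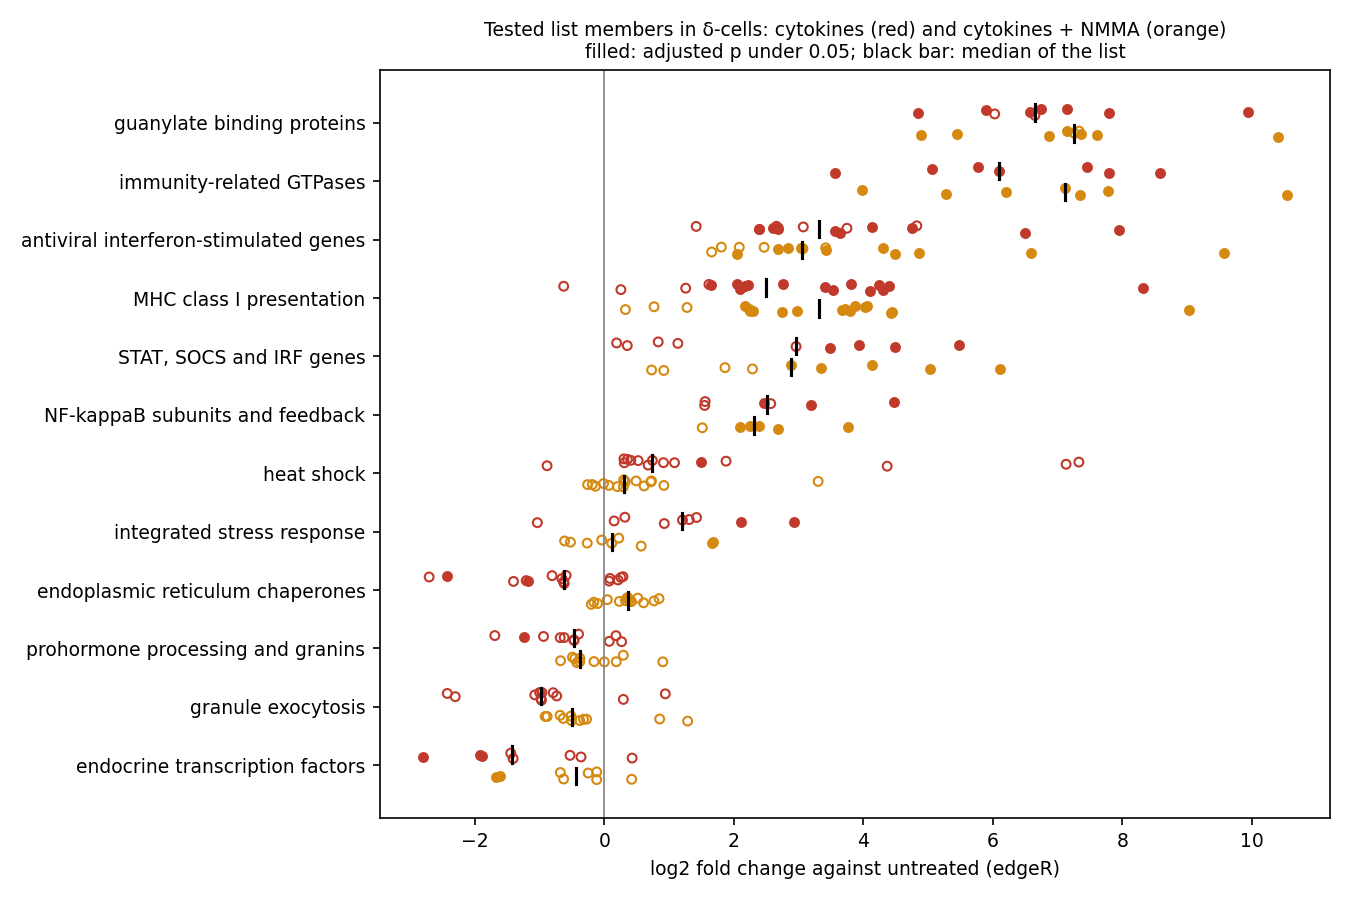
Each point is the log2 fold change of 1 tested gene in δ-cells against untreated cells, with cytokines (red) or cytokines plus NMMA (orange), by list; filled points passed at an adjusted p under 0.05, and black bars mark list medians. The IFN-γ-related lists lie to the right, with medians up to 7.25, and the endocrine lists lie left of 0. That highest median, of the GBPs, includes genes absent from untreated cells, whose points mark no defined fold. It is lower with these genes at their lower bound.

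Stress genes gave few calls in δ-cells. *Hspa1a* and *Hspa1b*, near-identical genes of the inducible chaperone HSP70, reached 965 and 2527 CPM and 232 and 2166 CPM with cytokines, against 231 and 4.90, and 23.6 and 0, with cytokines plus NMMA. Both libraries of cytokines alone were highest, yet in each of them all *Hspa1a* UMIs, 50 and 70, and all *Hspa1b* UMIs, 12 and 60, came from 1 cell each, and neither gene passed against untreated cells (edgeR adjusted p = 0.19 and 0.14). Of 15 heat shock genes tested 1 was higher with cytokines (3.98% of all genes were) and none with cytokines plus NMMA. With 1 call the list did not stand out from all genes. The median log2 changes were 0.74 and 0.30. The called gene was *Hspe1*, a mitochondrial chaperonin, at 376 and 426 CPM untreated, 714 and 1588 with cytokines, and 457 and 240 with cytokines plus NMMA (log2 change 1.49 ± 0.42, edgeR adjusted p = 0.038; 0.32 without cytokines replicate 2 and 0.23 without untreated replicate 1).

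In the integrated stress response list, 2 of 9 tested genes were higher with cytokines (3.98% of all genes). *Cebpb*, a transcription factor of acute-phase and stress responses, was at 83.9 and 28.4 CPM untreated, 482 and 577 with cytokines, 226 and 211 with cytokines plus NMMA, and 85.8 and 58.2 with NMMA alone. The groups did not overlap, and the log2 changes were 2.93 ± 0.45 (edgeR adjusted p = 4e-05) and 1.67 ± 0.41 (0.0092; 0.10 without untreated replicate 2 and 0.052 without cytokines plus NMMA replicate 2). *Ddit3* (CHOP) stood at 43.8 and 56.8 CPM untreated, 154 and 289 with cytokines and 75.5 and 34.3 with cytokines plus NMMA (2.11 ± 0.64 with cytokines, edgeR adjusted p = 0.044). It lost the call without either cytokine library, untreated replicate 1, NMMA replicate 1 or either library of cytokines plus NMMA (edgeR adjusted p = 0.058 to 0.39), and is uncertain because 2 annotated genes carry its symbol. *Gadd45b*, a stress sensor, rose with cytokines from 14.6 and 42.6 CPM to 270 and 144 (3.33 ± 0.70, edgeR adjusted p = 0.0024; 0.37 without cytokines replicate 1 and 0.21 without untreated replicate 1).

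Of 15 tested chaperones of the endoplasmic reticulum 2 were lower with cytokines alone (2.1% of all genes), with a median log2 change of -0.63 beside -0.07 over all genes, and none was called with cytokines plus NMMA, where the median was 0.36. *Hsp90b1*, the chaperone GRP94, was at 1517 and 1805 CPM untreated, 791 and 650 with cytokines, 1504 and 1372 with cytokines plus NMMA and 1422 and 1222 with NMMA alone. Only the libraries of cytokines alone were low (log2 change -1.19 ± 0.32, edgeR adjusted p = 0.023; 0.062 to 0.085 without either cytokine library or untreated replicate 2). *Pdia4*, a disulfide isomerase, was at 38.6 and 36.1 CPM with cytokines, or 2 UMIs and 1, against 186 and 242 untreated (-2.42 ± 0.68, edgeR adjusted p = 0.029; 0.40 without cytokines replicate 1, and 0.055 and 0.054 without cytokines replicate 2 and untreated replicate 1). *Sod2*, the mitochondrial superoxide dismutase, went from 150 and 156 CPM to 791 and 144 with cytokines and 684 and 740 with cytokines plus NMMA; the call with cytokines alone (1.74 ± 0.49, edgeR adjusted p = 0.041) rested on replicate 1, without which the change was -0.13 (0.98), and was also lost without untreated replicate 1 (0.26) or NMMA replicate 1 (0.085), while that with cytokines plus NMMA was 2.22 ± 0.45 (0.0031; 0.12 without untreated replicate 1). None of the 2 tested pro-apoptotic genes, *Bax* and *Bad*, passed.

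Some genes of endocrine identity fell. Of 8 tested endocrine transcription factors, 3 were lower with cytokines (2.1% of all genes) and 2 with cytokines plus NMMA (1.06% of all genes), none was higher, and the median log2 changes were -1.43 and -0.44. *Insm1*, a zinc finger factor, was at 204 and 227 CPM untreated and 135 and 505 with cytokines and did not pass. *Isl1* (chromosome 13, 116298281 to 116309689, minus strand), a LIM homeodomain factor of all islet hormone cells, was at 777 and 654 CPM in untreated δ-cells, 77.2 and 144 with cytokines, 274 and 176 with cytokines plus NMMA, and 705 and 628 with NMMA alone. Every library with cytokines was below every library without, and those of cytokines alone were lowest. Each of these 2 held 4 UMIs of *Isl1*. In replicate 2 the gap between 144 and 176 CPM is less than a single UMI, so the order of the 2 treatments is not resolved there. The log2 change was -2.80 ± 0.46 with cytokines (edgeR adjusted p = 0.00011) and -1.67 ± 0.34 with cytokines plus NMMA (0.0011), and the difference between both treatments was -1.13 ± 0.49 (0.48).

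*Hhex* (chromosome 19, 37434810 to 37440731, plus strand) stood at 328 and 611 CPM untreated, 57.9 and 217 with cytokines, 165 and 127 with cytokines plus NMMA, and 306 and 512 with NMMA alone. The groups with and without cytokines did not overlap, though cytokines alone gave only 3 and 6 UMIs. *Hhex* fell by 1.92 ± 0.55 on the log2 scale with cytokines (edgeR adjusted p = 0.037) and by 1.62 ± 0.42 with cytokines plus NMMA (0.015), and over all 4 libraries with cytokines against the 4 without by 1.68 ± 0.35 (0.0011). The call with cytokines alone was lost without cytokines replicate 1 (-1.11, edgeR adjusted p = 0.55) or untreated replicate 2 (-1.52, 0.12), with DESeq2 (0.17) and with total-UMI scaling (0.059). That with cytokines plus NMMA was lost without untreated replicate 2 (0.15) or cytokines plus NMMA replicate 2 (0.062).

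*Pax6*, a paired-box factor of endocrine cells, was low with cytokines alone, at 57.9 and 180 CPM, against 376 and 412 untreated, 387 and 333 with cytokines plus NMMA and 650 and 384 with NMMA alone. The values with cytokines alone are 3 UMIs, all from 1 cell, and 5 UMIs. Only cytokines alone stood apart (log2 change -1.89 ± 0.51, edgeR adjusted p = 0.023; -0.12 ± 0.36 with cytokines plus NMMA, 0.96). The difference between the treatments was -1.77 ± 0.51 (edgeR adjusted p = 0.12, or 0.043 with the replicate as a term). Without cytokines replicate 1 or untreated replicate 1 the call of *Pax6* was lost (0.50 and 0.058). *Pdx1*, which δ-cells share with β-cells, was at 204 and 114 CPM untreated, 57.9 and 72.2 with cytokines, 132 and 83.3 with cytokines plus NMMA, and 110 and 163 with NMMA alone, and did not pass (-1.45 ± 0.64, edgeR adjusted p = 0.22; -0.68 ± 0.40, 0.46).

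**Figure D4:**
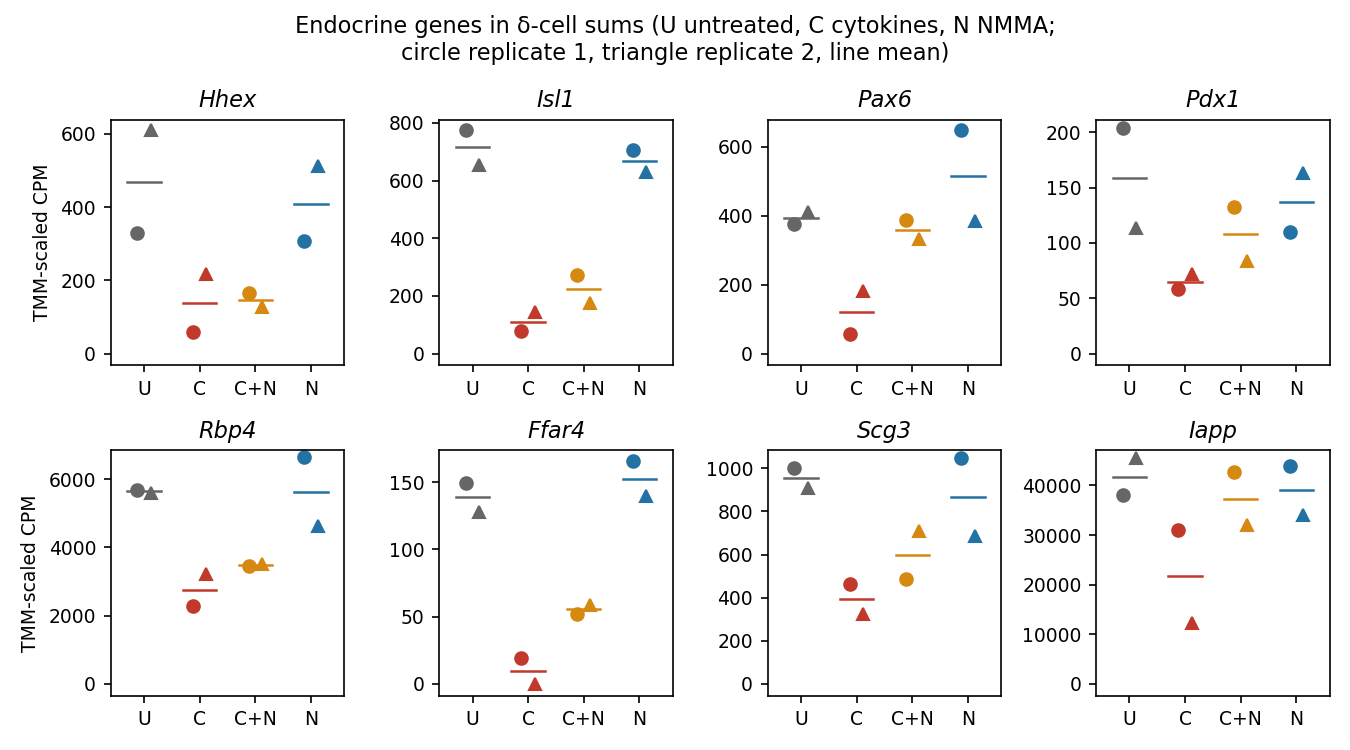
TMM-scaled CPM of 8 endocrine genes in δ-cell sums, with conditions, symbols and mean lines as for the response genes. *Isl1* was at most 274 CPM in the libraries with cytokines and at least 628 CPM in those without; *Pdx1* overlapped between groups.

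Of the δ-cell markers other than *Sst*, 4 passed the filter on low counts, and *Hhex*, *Rbp4* and *Ffar4* were lower with cytokines. *Rbp4* was at 5681 and 5599 CPM untreated, 2296 and 3212 with cytokines, 3461 and 3499 with cytokines plus NMMA, and 6632 and 4632 with NMMA alone, again without overlap. Its log2 change was -1.04 ± 0.30 with cytokines (edgeR adjusted p = 0.031; 0.34 without cytokines replicate 1, 0.092 without untreated replicate 1) and -0.70 ± 0.29 with cytokines plus NMMA (0.19, or 0.031 with the replicate as a term). *Ffar4*, a receptor for long-chain fatty acids, stood at 150 and 128 CPM untreated and at 19.3 and 0 with cytokines, that is 1 UMI in all (-3.42 ± 0.94, edgeR adjusted p = 0.025; 0.089 to 0.21 without either cytokine library or untreated replicate 1). With cytokines plus NMMA it was at 51.9 and 58.8 CPM (0.0504 over all genes, or 0.040 with the replicate as a term).

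Few secretory genes passed. Of 11 tested prohormone-processing and granin genes 1 was lower with cytokines (2.1% of all genes) and none with cytokines plus NMMA (1.06%). Of 11 exocytosis genes none was called in either, with medians of -0.97 and -0.51 for exocytosis. *Scg3*, a granin that sorts hormones into granules, was at 999 and 909 CPM untreated, 463 and 325 with cytokines, 486 and 711 with cytokines plus NMMA and 1048 and 687 with NMMA alone. The 2 libraries of cytokines alone were the lowest, and replicate 2 of cytokines plus NMMA lay above replicate 2 of NMMA alone. The change with cytokines was -1.24 ± 0.37 (edgeR adjusted p = 0.044; 0.094 to 0.17 without either cytokine library or untreated replicate 1). In the list of channels and glucose sensing 1 of 9 tested genes was lower with cytokines (2.1% of all genes) and none with cytokines plus NMMA. *Abcc8*, the sulphonylurea receptor of the KATP channel, fell from 857 and 455 CPM to 174 and 180 with cytokines (-1.93 ± 0.45, edgeR adjusted p = 0.0077; 0.10 without cytokines replicate 1 and 0.19 without untreated replicate 1) and stood at 424 and 245 with cytokines plus NMMA (0.097, or 0.0094 with the replicate as a term). *Chgb*, chromogranin B, was at 4387 and 4405 CPM untreated, 4554 and 5414 with cytokines and 6404 and 10027 with cytokines plus NMMA (0.90 ± 0.30 with cytokines plus NMMA, edgeR adjusted p = 0.078, or 0.0086 with the replicate as a term).

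Some of the largest changes fell outside these lists or, for *Cltrn*, in the list of α-cell markers. *Plet1*, which encodes an epithelial surface protein, had no UMI in untreated δ-cells and reached 347 and 217 CPM with cytokines and 467 and 299 with cytokines plus NMMA, at least 34.7-fold and 44.2-fold higher. Few cells carried it: 17 of 18 UMIs and 6 of 6 with cytokines, and 54 of 61 in cytokines plus NMMA replicate 2, lay in a single cell each. *Cltrn* (collectrin), a membrane protein of amino acid transport and exocytosis, fell from 2013 and 1734 CPM to 174 and 433 with cytokines and 457 and 407 with cytokines plus NMMA, against 2066 and 1373 with NMMA alone (log2 changes -2.73 ± 0.40 and -2.12 ± 0.34). Neither gene overlapped between libraries with and without cytokines. *Mrln*, *Rcan3*, *Spcs3*, *Dbp* and *Lrrc10b* had no UMI with cytokines alone and were at least 4.92-, 4.85-, 4.62-, 3.85- and 3.62-fold lower than in untreated cells. *Mrln*, which encodes a small inhibitor of the SERCA calcium pump, was at 146 and 341 CPM untreated, 18.9 and 24.5 with cytokines plus NMMA and 172 and 338 with NMMA alone, so it was low in all 4 libraries with cytokines (-3.26 ± 0.56 with cytokines plus NMMA). The 5 calls with cytokines alone were lost without cytokines replicate 1 (edgeR adjusted p = 0.13 to 0.35), and those of *Rcan3* and *Spcs3* also without untreated replicate 1 (0.105 and 0.0503). *Gstm1*, a glutathione transferase, was lowest with cytokines plus NMMA, at 14.1 and 0 CPM against 193 and 185 untreated (-4.56 ± 0.68), and at 38.6 and 253 with cytokines alone.

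The role of nitric oxide was addressed by setting cytokines alone against cytokines plus NMMA, where few δ-cell genes passed. Of 3293 genes 2 were higher (0.0607%) and 15 lower (0.456%) with cytokines alone, 0.516% of those tested, of which 5 were mitochondrial genes and 1, *Ppy*, a hormone gene that the rule used; with the replicate as a term 7 were higher and 43 lower. The test of whether the cytokine change differed with and without NMMA called 0 genes with edgeR, 1 with DESeq2 and 3 with the replicate as a term, while 189 had an unadjusted edgeR p under 0.05. This comparison has 7 cells on the side of cytokines alone. The 17 calls became 50 without untreated replicate 2, 45 without NMMA replicate 2, 41 without cytokines replicate 2, 28 without cytokines plus NMMA replicate 1 and 27 without cytokines replicate 1.

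*Swt1*, an RNA endonuclease gene, was the higher gene outside the hormones, at 232 and 253 CPM with cytokines against 23.6 and 53.9 with cytokines plus NMMA, 54.7 and 71.1 untreated and 73.6 and 46.6 with NMMA alone. Only cytokines alone stood out (log2 difference 2.61 ± 0.56, edgeR adjusted p = 0.032; 0.18 without cytokines replicate 1, 0.20 without cytokines plus NMMA replicate 1). *Odc1*, the rate-limiting enzyme of polyamine synthesis, was at 19.3 and 144 CPM with cytokines, below 410 and 417 with cytokines plus NMMA (-2.64 ± 0.58, edgeR adjusted p = 0.032; 0.40 without cytokines replicate 1). *C2cd4b* had no UMI with cytokines alone and stood at 231 and 127 CPM with cytokines plus NMMA, at least 4.78-fold lower (edgeR adjusted p = 0.032; 0.23 without cytokines replicate 1, 0.076 without cytokines plus NMMA replicate 1).

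*Cxcl9* and *Iigp1*, given above, were lower with cytokines alone by 4.31 ± 0.90 and 1.96 ± 0.41 on the log2 scale (edgeR adjusted p = 0.032 for both; 0.30 and 0.18 without cytokines replicate 1, and for *Cxcl9* 0.23 without cytokines plus NMMA replicate 1, for *Iigp1* 0.35 without cytokines plus NMMA replicate 2 and 0.11 without cytokines replicate 2). The single-cell source of *Cxcl9* bears on it. *Lcn2* was at least 160-fold lower with cytokines alone (edgeR adjusted p = 0.50, or 2.3e-20 with the replicate as a term, neither of them firm for this gene). Other immune genes varied. *Irf1* differed by 0.36 ± 0.33, *B2m* by -0.14 ± 0.32 and *Psmb8* by -0.32 ± 0.33. *H2-T23* and *Zbp1*, given above, rose less with cytokines alone than with cytokines plus NMMA. Of the list medians given above, that of MHC class I was smaller without NMMA. Those of the STAT, SOCS and IRF, NF-κB and antiviral lists were larger without it. None of 18 MHC class I genes and none of 9 GBPs passed. A difference that did not pass does not show that the levels were equal.

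In the endoplasmic reticulum list 14 of 15 genes were below 0 in this comparison, as were 55.4% of all genes, with a median of -0.98 beside -0.10 over all genes (-0.06 with total-UMI scaling), and none passed. *Hspa5* (BiP), the main chaperone of that compartment, was at 675 and 758 CPM with cytokines against 1801 and 1372 with cytokines plus NMMA and 1222 and 1279 untreated (-1.15 ± 0.33, edgeR adjusted p = 0.12, or 0.0062 with the replicate as a term). *Hsp90b1*, given above, differed by -0.98 ± 0.32 (0.23, or 0.032). The mitochondrial calls counted above are no result, since the rule limits mitochondrial UMIs. The median mitochondrial share per δ-cell lay between 1.82% and 5.52% over the libraries.

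The cytokine change of δ-cells was then set against that of β- and α-cells from the same libraries, with the library as a block. Some of the IFN-γ-response genes gave differences that did not pass: the change of *Irf1* differed between δ- and β-cells by 0.63 ± 0.34 (edgeR adjusted p = 0.72) and that of *Psmb8* by -0.06 ± 0.25 (adjusted p = 1). Of 12655 genes 15 changed more upward and 54 more downward in δ- than in β-cells (0.545%). The split turned on the scaling and the genes entered: it was 23 and 14 with total-UMI scaling, where the median of all genes was -0.05 instead of -0.32, and 16 and 12 over the 3293 genes that pass the filter in δ-cells (0.486% and 0.364%). Against α-cells 17 were more upward and 80 more downward of 8332 (1.16%), 76 and 13 with total-UMI scaling, and 7 and 40 over the genes that pass in δ-cells (0.213% and 1.21%). These counts moved with single libraries. Without untreated replicate 1, cytokines replicate 1, cytokines plus NMMA replicate 1, NMMA replicate 1, cytokines plus NMMA replicate 2 and NMMA replicate 2 the 69 calls against β-cells became 34, 28, 35, 28, 23 and 36. The 97 against α-cells became 49, 60, 57 and 44 without the 4 libraries of replicate 1 in the order of untreated, cytokines, cytokines plus NMMA and NMMA, and 170 and 44 without cytokines replicate 2 and cytokines plus NMMA replicate 2. For cytokines against cytokines plus NMMA, 6 genes differed upward (0.0474%) and 55 downward (0.435%) between δ- and β-cells, or 3 and 7 over the genes that pass in δ-cells (0.0911% and 0.213%). *Nos2* did not pass there (0.39 ± 0.46, edgeR adjusted p = 0.95).

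*Cyba*, the p22phox subunit of NADPH oxidases, rose in δ-cells, while its change in β-cells was -0.60 (edgeR adjusted p = 0.70). It was at 10.9 and 14.2 CPM in untreated δ-cells, 328 and 144 with cytokines, 358 and 397 with cytokines plus NMMA, and 6.13 and 11.6 with NMMA alone, while β-cells had 1.47 and 12, 1.01 and 8.47, 1.66 and 5.09, and 2.65 and 7.99. The 4 δ-cell sums with cytokines stood above the 12 other sums, though all 4 UMIs in replicate 2 of cytokines alone came from 1 cell. The difference in log2 change was 5.41 ± 0.61 (edgeR adjusted p = 2.1e-12, and 0.0085 over the genes that pass in δ-cells). α-cells went from 0.782 and 1.15 to 13.6 and 8.70 with cytokines and 47.7 and 31.4 with cytokines plus NMMA, and the difference from δ-cells did not pass (0.71 ± 1.39, edgeR adjusted p = 0.92). The change with cytokines alone in δ-cells was 4.35 ± 0.64, with an adjusted p of 0.094 without cytokines replicate 1.

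*B2m*, *H2-K1* and *Bst2* rose more in δ- than in β-cells. The change of *B2m* over all libraries was 3.55 in δ-cells and 2.76 in β-cells, whose levels went from 202 and 244 CPM to 1738 and 1211 with cytokines (difference 0.83 ± 0.20, edgeR adjusted p = 0.0087). For *H2-K1* the changes were 2.12 and 1.41 (0.74 ± 0.18, 0.016; DESeq2 0.075) and for *Bst2* 3.73 and 2.31 (1.35 ± 0.33, 0.010; DESeq2 0.058). Of 19 MHC class I genes tested here 4 rose more in δ-cells (0.119% of all genes) and none less. All 3 differences were larger with total-UMI scaling. Against α-cells the difference of *B2m* was 0.35 ± 0.21 (0.60).

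*Isl1* fell by 2.18 in δ-cells and by 0.78 in β-cells, from 127 and 128 CPM to 42.9 and 46.0 with cytokines and 106 and 115 with cytokines plus NMMA (difference -1.41 ± 0.30, edgeR adjusted p = 0.0012; 0.056 with total-UMI scaling). Against α-cells, where it fell by 0.97, the difference was -1.16 ± 0.32 (0.025; 0.33 with total-UMI scaling). *Hhex*, near its detection limit in β-cells, gave a difference of 0.38 ± 0.45 (0.95), and no comparison of its change between classes can be drawn from that. *Scg3* fell by 0.90 in δ-cells and rose by 0.42 in β-cells (difference -1.29 ± 0.21, edgeR adjusted p = 6.3e-06), and *Cltrn* fell by 2.36 and 1.13 (-1.24 ± 0.22, 5.8e-05; 0.11 without cytokines replicate 1). *Rbp4* fell by 0.87 in δ-cells and stood at 2325 and 1759 CPM untreated and 4699 and 2056 with cytokines in α-cells (difference -1.24 ± 0.18, edgeR adjusted p = 1.1e-08; 0.062 over the genes that pass in δ-cells).

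**Figure D5:**
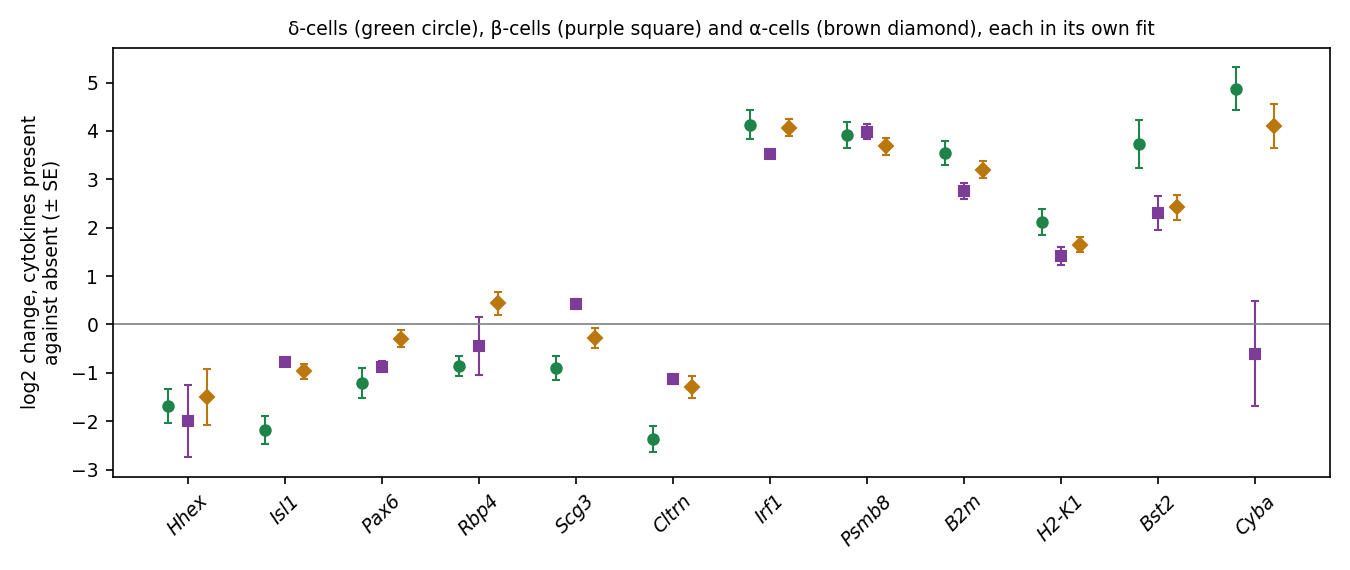
Log2 change (± SE) of 12 genes with cytokines present against absent, each class in its own fit, with green circles for δ-cells, purple squares for β-cells and brown diamonds for α-cells. *Isl1* and *Cltrn* lie lowest in δ-cells (-2.18 and -2.36), and *Cyba* lies near 5 in δ-cells (4.87) and below 0 in β-cells (-0.60).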

How the data were processed

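The deposited files were filtered 10x matrices whose values are UMI counts, not normalized, which the authors made with Cell Ranger (versions 3.0.0 for replicate 1 and 6.0.0 for replicate 2 per the file headers, mm10 per the submitters' processing notes). The 30406 gene IDs shared by both were used. The deposited counts of all δ-cells of a library were summed and tested with edgeR 4.0.16 in R 4.3.3 (filterByExpr, TMM, robust quasi-likelihood F test, SE as the change over the root of F, Benjamini-Hochberg adjustment over all genes tested, threshold 0.05) with 8 libraries in 1 fit; class differences used the sums of both classes with the library as a block. A minimum of 10 cells per library had been planned, but no library of cytokines alone reached it. Replicate 2 of untreated cells and of NMMA alone, with 8 δ-cells each, also missed it. All libraries were therefore kept. The study's own tests compared single cells; sums were used here because cells of 1 library are not replicates. The genes that define the rule (hormone and mitochondrial genes) stayed in the fit and in the counts of calls over all genes, and their own values are given as a description only.

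The same replicate number marks the same pool of islets. Deviations from the condition means correlated between same-numbered libraries (r = 0.109 to 0.299 over 6 pairs in δ-cells, 0.503 to 0.746 in β-cells), so a fit with the replicate as a term was run. Alternatives were DESeq2 1.42.0, total-UMI scaling, no filter on low counts, cells thinned to 3000 UMIs, other limits on depth and cells, doublets removed (scanpy 1.11.5, scrublet; no δ-cell was removed), a β-cell profile subtracted, and each library left out; added after seeing the data were a wider gate, limma 3.58.1 voom and the δ-cell filter for class differences. The fit was tested on simulated data. The members and all 33 gene lists were chosen with earlier results of these data known. Genes named are up to 6 per list (called genes by smallest p, otherwise the highest level), *Hhex*, *Pdx1*, *Isl1* and *Nos2*, the 5 largest changes each way per comparison and the 5 smallest p per class difference; others are named where a sentence rests on them. Gene positions are from GENCODE M21 and promoters from RefSeq, both on GRCm38. Labels and methods differ on the 10x kit version. Some genes are not reported here.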

Additional observations from a re-analysis of the deposited data

Results flagged for a closer look

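The effects below differed between δ-cells and another cell class of the same libraries by a test of the difference itself (edgeR with the library as a block, adjusted over all genes). For the change with cytokines present against absent, the 5 genes with the smallest p between δ- and β-cells differed by 5.41 (*Cyba*), -2.21 (*Ehf*), -1.29 (*Scg3*), -1.09 (*Eif1*) and -1.24 (*Cltrn*) on the log2 scale. *Ehf*, an epithelial ETS factor, was at 219 and 114 CPM in untreated δ-cells and 251 and 180 with cytokines, while β-cells went from 2.92 and 4.74 to 18.9 and 21.2; its difference had an adjusted p of 0.11 without untreated replicate 1. *Eif1*, a translation initiation factor, was at 2640 and 2629 CPM in untreated δ-cells and 1872 and 2166 with cytokines, and at 1077 and 1082 against 2518 and 2179 in β-cells. *Cltrn* lost its call without cytokines replicate 1 (adjusted p = 0.11).

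For cytokines against cytokines plus NMMA, δ- and β-cells differed by 5.10 (*Hspa1b*), -4.31 (*Cfb*), -5.61 (*Cxcl9*), 3.27 (*4930539E08Rik*) and -1.97 (*Mt1*), with 6 genes higher and 55 lower in all (0.482% of those tested), or 8 and 93 with the replicate as a term, 25 and 15 with total-UMI scaling, 3 and 7 with DESeq2 and none with limma voom. None of these 5 differences passed over the spread of the δ-cell libraries alone except *Cxcl9*, and UMIs of *Cxcl9* in δ-cells came mostly from single cells, as did all *Hspa1b* UMIs with cytokines alone (12 of 12 and 60 of 60 in 1 cell each). *Mt1*, a metallothionein, was at 309 and 902 CPM with cytokines and 1207 and 1309 with cytokines plus NMMA in δ-cells, and at 6968 and 7994 against 4847 and 5845 in β-cells. Without cytokines replicate 1 the adjusted p of *Cxcl9* was 0.076 and that of *4930539E08Rik* 0.085.

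Between δ- and α-cells the cytokine change differed by -1.24 (*Rbp4*), -1.43 (*Mt1*), -2.22 (*Odc1*), -1.64 (*Tent5a*) and -1.74 (*Marcks*). *Odc1* went from 62.6 and 71.6 CPM to 270 and 199 with cytokines in α-cells, against 175 and 185 and then 19.3 and 144 in δ-cells; with the wider gate its adjusted p was 0.45. *Tent5a*, a poly(A) polymerase of secretory mRNAs, was at 503 and 995 CPM in untreated δ-cells, 482 and 108 with cytokines and 453 and 426 with cytokines plus NMMA.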

How the results depend on the processing

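Each library was left out in turn and other settings were tried. A value was counted only where the gene was tested and had an adjusted p, so results lost for want of a test are not in the tally. Removal of doublets took out no δ-cell, so values under that setting stayed by construction. Below, δ- against β-cells under NMMA stands for their difference in cytokines against cytokines plus NMMA. Of 143 gene results, leaving out a library gave 1133 values, of which 999 stayed on their side of the threshold, 133 lost it and 1 turned (*Sod2* with cytokines, from -0.13 without cytokines replicate 1 to 2.32 without cytokines replicate 2); of 1581 values under other settings, 1447 stayed, 134 lost it and none turned. Counts of calls ranged, with a library left out, over 59 to 268 for cytokines against untreated (200 with all), 78 to 324 for cytokines plus NMMA (195), 13 to 50 for cytokines against cytokines plus NMMA (17), 0 to 1 for NMMA (0), 188 to 521 for cytokines present (389), 0 to 11 for the change without against with NMMA (0), 23 to 80 for δ- against β-cells (69), 27 to 70 for the same under NMMA (61) and 44 to 170 for δ- against α-cells (97).

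In that order of comparisons, DESeq2 gave 95 and 97 for the first pair, 212 for cytokines present, 1 for the change without against with NMMA, and 16, 10 and 31 for the class differences. No filter on low counts gave 297 with cytokines plus NMMA, 64 between the treatments, 1 for NMMA and 15 for the change. Thinning to 3000 UMIs gave 42, 50, 1 and 80 for cytokines, cytokines plus NMMA, the treatments and cytokines present, and 20, 25 and 32 for the class differences. The replicate block, which pairs libraries of 1 pool, gave 293, 50, 3 and, for δ- against β-cells in cytokines against cytokines plus NMMA, 101. At least 10 cells per library, which leaves no library of cytokines alone, gave 338 with cytokines plus NMMA and 3 for NMMA; at least 5000 UMIs gave 11 between the treatments. Total-UMI scaling gave 37 and 40 for δ- against β-cells. Of the settings added after seeing the data, the wider gate gave 554, 501, 46, 929 and 5, and 175 and 149 for δ- against β-cells; with the replicate block 769, 730, 210, 1, 1164 and 27; voom gave 1 for the change, and 179 and 0 for δ- against β-cells; the δ-cell filter gave 28, 10 and 47. The share of δ-cells with *Nos2* was 100% unthinned and at 7000 UMIs in cytokines replicate 1, 62.5% unthinned in cytokines plus NMMA replicate 1, and 75.0% unthinned, 66.7% at 7000 UMIs and 0% with *Sst* at 80% in replicate 2. The 80% gate left 2 δ-cells in untreated replicate 1, 1 in cytokines plus NMMA replicate 2 and 0 elsewhere. Apart from fewer cells or genes entering a fit, the cause was not tested. Depth limits the comparisons with cytokines alone, where 1 UMI is 19.3 or 36.1 CPM.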

Other observations

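Smaller lists held few calls. Over all genes 3.98% were higher and 2.1% lower with cytokines, and 4.86% and 1.06% with cytokines plus NMMA. Of 8 tested genes of the Nrf2 list *Sod2* rose with cytokines and *Sod2* and *Txn1* with cytokines plus NMMA. The study counts *Sod2* among the genes that depend on IL-1β. *Txn1*, thioredoxin, changed by 1.28 ± 0.33 (edgeR adjusted p = 0.013; 0.28 without untreated replicate 1, 0.087 without either library of cytokines plus NMMA). Of 2 metallothioneins *Mt2* rose with cytokines plus NMMA, from 51.1 and 142 CPM to 217 and 368 (1.90 ± 0.45, edgeR adjusted p = 0.0073; 0.55 without untreated replicate 1, 0.12 without cytokines plus NMMA replicate 2). Of 5 tested genes of the p53 list *Gadd45b* was higher and *Btg2* lower with cytokines. Whether p53 acts on either was not tested. *Btg2*, an antiproliferative gene, was at 616 and 369 CPM untreated, 38.6 and 217 with cytokines, 241 and 191 with cytokines plus NMMA and 564 and 431 with NMMA alone (-2.24 ± 0.54 with cytokines, edgeR adjusted p = 0.011; 0.43 without cytokines replicate 1, 0.13 without untreated replicate 1). Of 9 immediate early genes *Fos* was lower with cytokines, at 0 and 36.1 CPM against 241 and 99.5 untreated, and *Ier3* higher with cytokines plus NMMA (2.14 ± 0.48, edgeR adjusted p = 0.0035). *Fos*, an AP-1 subunit, lost the call without cytokines replicate 1 (0.49) or untreated replicate 1 (0.28). Acinar markers ran from 1.14 to 8.55 and ductal markers from 6.22 to 11.2 per 10000 δ-cell UMIs.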
